A study of Mus musculus with 8 samples.

Results

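C1q-positive tumour macrophages were studied as 70 wells of 3072, each of which had received 1 sorted cell of a mouse colon tumour. A well was taken as a member when it held at least 1000 transcripts, at least 5 transcripts of C1qa, C1qb and C1qc together at a rate of at least 10 per 10000, and at least 1 transcript of Lyz2. It also had to hold under 2 transcripts of Epcam, under 2 of Cd3e and Cd79a together, and under 50 per 10000 of the collagen genes Col1a1, Col1a2 and Col3a1. Of all wells, 1772 reached 1000 transcripts, 151 of these reached 5 C1q transcripts, 95 then reached the rate, and 81, 77, 76 and 70 were left after Lyz2, Epcam, the lymphocyte genes and the collagens. The 3 members with the lowest C1q rates held 11.5, 13 and 14.6 per 10000, whereas the 3 highest wells below the limit that met every other criterion held 9.74, 9.01 and 8.19.

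C1q is the recognition molecule of the classical complement pathway, built from the chains of C1qa, C1qb and C1qc, which lie side by side on mouse chromosome 4. Macrophages are a major source of it, outside any complement cascade in the blood, and C1q on dying cells and debris aids their uptake. In colon tumours, C1q-expressing macrophages are commonly set against cells closer to blood monocytes, and are known for antigen presentation, lipid handling and clearance of dead cells.

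The tumours grew from genetically engineered colon tumour organoids that were transplanted into the wall of the mouse cecum. In FibΔZeb1 hosts, labelled Fib-Del, Zeb1 was deleted in fibroblasts by a tamoxifen-inducible Cre, which the labels name Col1a1Cre-ERT2 and the methods of the study Col1a2-CreERT2, on an FvB background with both Zeb1 alleles floxed. FibCtrl hosts were Cre-negative, carried the floxed alleles and received the same tamoxifen diet; ages were not given. The macrophages were thus not the cells targeted by Cre, and Cre activity in them was not examined here. Each genotype had 4 mice, 1 per 384-well plate, so the plate was the replicate.

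The FibCtrl plates held 3, 0, 15 and 9 members in replicates 1 to 4, and the FibΔZeb1 plates held 26, 1, 9 and 7. A member well had between 2438 and 44446 transcripts, with a median of 12347, and between 965 and 6990 detected genes, with a median of 3376. The summed members of a plate gave 48881, 165484 and 168767 transcripts on FibCtrl 1, 3 and 4, and 345221, 4747, 99558 and 78138 on FibΔZeb1 1 to 4. Levels are given as CPM, the counts per 1000000 transcripts of these sums. Because each molecule was counted from its 3′ end, levels of different genes were compared without a correction for length. On FibΔZeb1 2 a level rests on 1 well, and 3 counts there would equal 632 CPM, against 8.69 CPM on FibΔZeb1 1.

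Some plates stood apart before any comparison. The 3 members of FibCtrl 1 held 245 CPM of Csf1r, the receptor for the macrophage growth factor CSF1, against 923 to 1534 CPM on the plates with 7 or more members, and 5351 CPM of 10 fibroblast genes together. The members of FibCtrl 3 and FibΔZeb1 1 held 39 and 71 transcripts of the Y-linked gene Ddx3y and 0 and 2 of Xist, whereas those of FibCtrl 1, FibCtrl 4, FibΔZeb1 3 and FibΔZeb1 4 held 0 of Ddx3y and 19, 80, 57 and 35 of Xist. By their run identifiers, the plates of replicates 1 and 2 came from 1 flow cell and those of replicates 3 and 4 from another, in both genotypes. Outside the members, C1q transcripts were found at up to 1.47 per 10000 in summed epithelial-type wells and up to 1.62 in summed fibroblast-type wells. Both values were from FibΔZeb1 1, where members summed to 66.6 per 10000. Epithelial-type wells were limited to under 10 C1q transcripts per 10000 by definition. On FibΔZeb1 1, 77 wells held at least 5 C1q transcripts and 26 were members. Zeb1 was represented by 2 transcripts in 1 member well, on FibCtrl 3, and pooled at 2.20 CPM over all members, against 57.3 CPM in fibroblast-type wells.

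**Figure D1:**
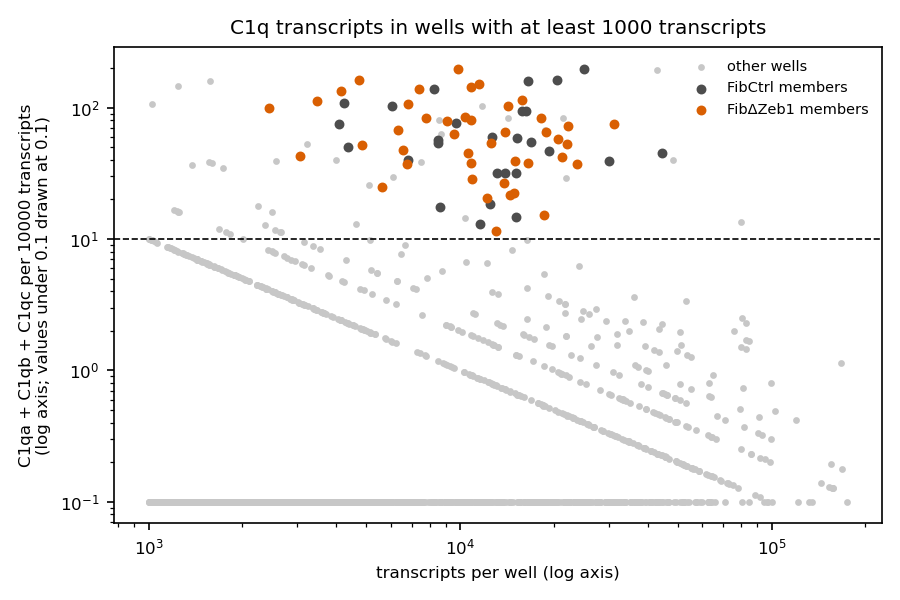
Each point is 1 well with at least 1000 transcripts; the horizontal axis gives its transcripts (log axis) and the vertical axis its C1qa, C1qb and C1qc transcripts per 10000 (log axis, values under 0.1 drawn at 0.1). The 70 members lie above the dashed line at 10 per 10000, and grey points above that line failed another criterion of the rule.

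The promoters of the genes that carried most of the description below are shown because the C1q chains defined the members and the MHC class II genes varied together among them. The windows run from 250 bases before to 50 after the RefSeq start (GRCm38.p6) and read 5′ to 3′ on the gene's strand. In H2-Aa and H2-Eb1, the alpha chain of I-A and the beta chain of I-E, capitals mark CTGATTGG, the letters of the Y box at MHC class II promoters. In C1qb and C1qc, capitals mark GAGGAA or its complement TTCCTC, a core bound by the myeloid factor PU.1. Both motifs were searched on both strands, and 4.1% and 28.3% of 32851 mouse promoter windows of the same length held them. A match is a description of the letters and no evidence of binding. C1qa and H2-Ab1 are named without a window.
H2-Aa, chr17:34287774-34288073, minus strand: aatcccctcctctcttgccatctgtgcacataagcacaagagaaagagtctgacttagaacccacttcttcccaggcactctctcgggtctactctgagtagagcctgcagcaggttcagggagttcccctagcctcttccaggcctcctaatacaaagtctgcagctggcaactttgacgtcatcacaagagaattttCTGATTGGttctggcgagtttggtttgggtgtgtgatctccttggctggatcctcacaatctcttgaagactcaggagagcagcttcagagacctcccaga
H2-Eb1, chr17:34305617-34305916, plus strand: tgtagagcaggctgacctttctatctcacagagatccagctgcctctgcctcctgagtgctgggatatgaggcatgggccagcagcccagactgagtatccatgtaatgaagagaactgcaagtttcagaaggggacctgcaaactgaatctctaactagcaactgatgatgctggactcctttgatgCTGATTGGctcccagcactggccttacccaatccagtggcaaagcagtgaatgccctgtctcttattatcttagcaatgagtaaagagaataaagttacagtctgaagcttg
C1qb, chr4:136886151-136886450, minus strand: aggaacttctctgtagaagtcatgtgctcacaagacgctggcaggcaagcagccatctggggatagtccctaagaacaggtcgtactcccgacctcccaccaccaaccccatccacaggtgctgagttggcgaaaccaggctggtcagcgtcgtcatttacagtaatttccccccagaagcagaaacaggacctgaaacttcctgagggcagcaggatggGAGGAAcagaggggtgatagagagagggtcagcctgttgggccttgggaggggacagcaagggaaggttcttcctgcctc
C1qc, chr4:136892865-136893164, minus strand: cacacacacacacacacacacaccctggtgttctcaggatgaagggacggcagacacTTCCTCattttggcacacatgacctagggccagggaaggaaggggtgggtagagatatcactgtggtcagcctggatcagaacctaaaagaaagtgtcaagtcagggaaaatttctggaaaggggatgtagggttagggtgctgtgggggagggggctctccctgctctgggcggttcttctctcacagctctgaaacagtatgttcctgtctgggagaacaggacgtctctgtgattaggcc

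The label was first checked against macrophage genes that the rule had not used. Csf1r was found in 70 of the 70 members, the signalling adaptors Fcer1g and Tyrobp in 69 and 67, the Fc receptor Fcgr3 in 69 and the lipopolysaccharide co-receptor Cd14 in 68. The lysosomal glycoprotein Cd68 was found in 59 wells, Emr1, the older symbol of Adgre1 which encodes F4/80, in 54, and the high-affinity Fc receptor Fcgr1 in 52. Csf1r transcripts were found in 18.0% of epithelial-type wells, which have no macrophage identity and a median of 18562 transcripts, Fcgr3 in 4.36% and Fcgr1 in 1.63%. All 16 genes of the pan-macrophage list reached 50 CPM in the pooled members, and together they made up 11391 CPM, against 233 CPM in epithelial-type and 483 CPM in fibroblast-type wells. The list did not separate the members from other myeloid wells, as it summed to 11441 CPM in C1q-low monocyte-type and 13202 CPM in neutrophil-type wells. Genes outside the rule thus marked the members as myeloid cells, and other genes were needed to set them apart from neutrophils and monocytes.

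Transcripts of other cell types were low in the members. The rule itself limited Epcam, Cd3e, Cd79a and the collagens of these lists. Neutrophil-type, epithelial-type and fibroblast-type wells were chosen by S100a8 and S100a9, by Epcam and by the collagens in turn. The contrasts with them are thus partly set by these definitions. The 11 neutrophil genes in the tables summed to 144 CPM, against 69286 CPM in neutrophil-type wells, and the epithelial genes to 193 CPM, against 6620 CPM in epithelial-type wells. Flt3, which defines dendritic cells in the list, was at 0, and the 10 dendritic genes summed to 25.3 CPM. The T cell, B lineage, NK, endothelial and mast lists summed to 37.3, 17.6, 56.0, 8.78 and 95.6 CPM. Fibroblast genes were the largest of these, with 1862 CPM in the members and 80478 CPM in fibroblast-type wells, and they ranged from 544 CPM on FibCtrl 3 to 5351 CPM on FibCtrl 1. The members of FibCtrl 4 held 1720 CPM of them and those of FibΔZeb1 1 to 4 held 2650, 1685, 783 and 678 CPM. Their part in the levels described below was not tested.

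The members' most abundant transcripts outside the rule and the ribosomal genes belonged to lipid transport, antigen presentation, the cytoskeleton, iron storage and lysosomes. Apoe, an apolipoprotein of lipid export, was the highest of these, at 9851, 12431 and 16730 CPM on FibCtrl 1, 3 and 4 and at 13596, 19602, 13591 and 7738 CPM on FibΔZeb1 1 to 4. Plates of both genotypes overlapped for Apoe. Cd74, the invariant chain that escorts MHC class II molecules, stood at 22590, 7511 and 6165 CPM and at 17693, 37014, 13360 and 6946 CPM in the same order. H2-Aa stood at 23361, 5777 and 3105 CPM and at 13855, 37455, 8557 and 5503 CPM, so that the highest levels of both genes came from the plates with 3 and 1 members. The cathepsin gene Ctss, encoding a protease that trims the invariant chain, was even by comparison, between 3203 and 7829 CPM over all 7 plates with members. Lyz1, a lysozyme with a close copy in Lyz2, ranged from 1898 to 18608 CPM, and the division of reads between the copies is uncertain.

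Other abundant genes were those of the ferritin chains Fth1 and Ftl1, with pooled levels of 7211 and 6635 CPM, of the actin binding protein Tmsb4x with 7837 CPM, and of the cathepsin Ctsb with 4347 CPM. The acute-phase protein gene Saa3 and the fibronectin gene Fn1 pooled at 5052 and 5181 CPM, the interleukin gene Il1b at 4565 CPM and the neutrophil attractant Cxcl2 at 4207 CPM. These averages hid unequal wells. Saa3 had a median of 0 per 10000 over the 70 wells and a highest value of 755, whereas Fth1 lay between 15.4 and 411 per 10000 in every member.

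The members were next set against 67 wells called C1q-low monocyte-type. These carried Lyz2, at least 1 transcript of Ptprc, Csf1r or Ccr2, and under 10 C1q transcripts per 10000. The rule for members did not ask for Ptprc, Csf1r or Ccr2, so the levels of these genes in C1q-low wells are partly set by the definition. Because C1q divided these classes, the values are a description without a test. They are medians over 7 plates of the log2 ratio of CPM plus 10, and their median over the 3466 genes with at least 50 CPM in the members was 0.00. C1q-low wells numbered between 3 and 18 on these plates and had a median of 7706 transcripts. The C1q chains themselves, used by the rule, were higher by 6.16 for C1qc, 5.29 for C1qb and 5.08 for C1qa.

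Outside C1q, the members' largest positive ratio was that of Mmp12, the macrophage elastase, at 4.22, followed by the chemokine gene Cxcl10 at 3.71 and the cyclin D1 gene Ccnd1 at 3.31. Mmp12 pooled at 1011 CPM in the members and 423 CPM in C1q-low wells, and it was higher in the members on 5 of 7 plates. The B cell and macrophage adaptor Blnk (3.02), the biliverdin reductase Blvrb (2.52) and the prostaglandin D synthase Hpgds (2.23) were higher in the members on all 7 plates. Pooled levels in members and C1q-low wells were 96.6 and 21.7 CPM for Blnk and 62.6 and 31.7 CPM for Blvrb. They were 67.0 and 26.7 CPM for Hpgds and 120 and 18.4 CPM for Ccnd1. C1q-low wells held 0 CPM of each of these genes on every FibCtrl plate with members and on FibΔZeb1 2. The medians of these genes thus depend on the constant added to CPM, and their pooled levels differed less. Ch25h, which makes an oxysterol that acts on cholesterol synthesis, had a ratio of 2.91 and pooled levels of 86.8 and 3.34 CPM. The G-protein regulator Rgs1 (2.13), the monocyte chemokine Ccl12 (2.06) and the TGFβ-induced gene Pmepa1 (2.04) followed. Hspa1b, a heat shock gene with a near-identical copy, reached 2.21.

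Genes with lower values in the members included several of the monocyte list. Plac8 had a ratio of −2.88 and was lower on 7 of 7 plates, with pooled levels of 86.8 CPM in the members and 751 CPM in C1q-low wells. Chi3l3, the older symbol of the chitinase-like gene Chil3, had a ratio of −3.06 and S100a4, a calcium-binding protein of motile cells, one of −2.30. The formyl peptide receptor Fpr2 lay at −2.19, the proteoglycan gene Vcan at −1.77 and the monocyte chemokine receptor Ccr2, part of the C1q-low definition, at −0.99. Ccr2 was nevertheless present in the members, with a pooled level of 545 CPM against 942 CPM in C1q-low wells and 2.94 CPM in epithelial-type wells. The median ratio of the monocyte list was −1.32 over the genes at 50 CPM or more, and 1 of these 10 genes was above 0.

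**Figure D2:**
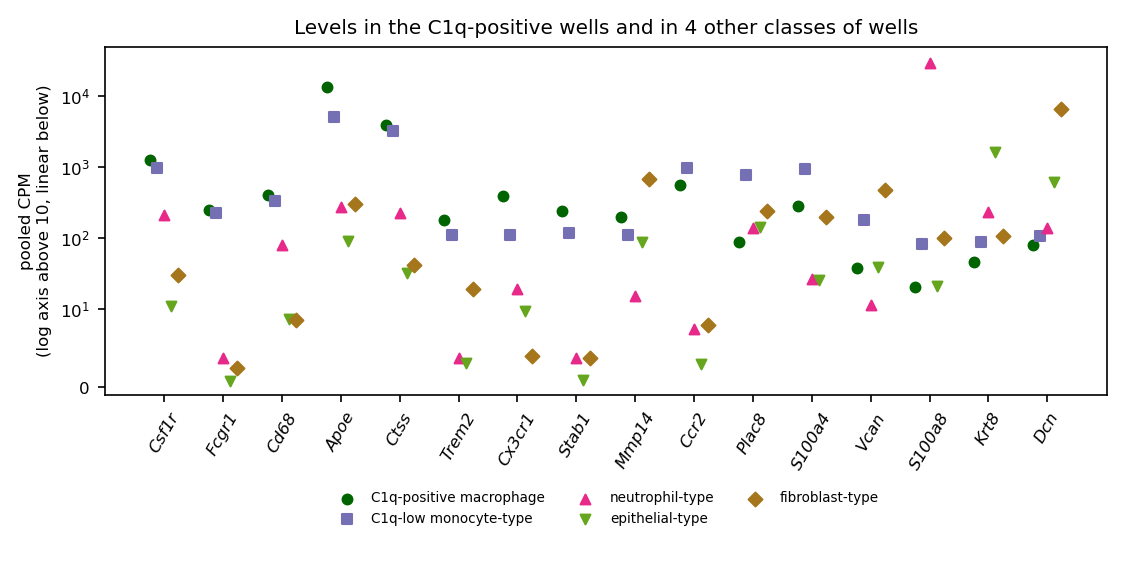
Pooled CPM (log axis above 10, linear below) of 16 genes in the members and in 4 other classes of wells; each symbol is 1 class summed over all plates, with no error bar. Csf1r was similar in members and C1q-low wells (1231 and 950 CPM), Apoe and Cx3cr1 were higher in members (13292 against 4958 CPM and 386 against 110 CPM), and Plac8 and S100a4 were lower (86.8 against 751 CPM and 275 against 916 CPM). Csf1r and Ccr2 were part of the definition of C1q-low wells.

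Lists of macrophage functions differed little or moderately in this contrast. List medians cover the genes with at least 50 CPM in the members. The lipid-associated list had a median ratio of 0.67, with 11 of 13 such genes above 0. Plin2 (−0.14) and Apoc2 (−0.11) lay below 0, and Spp1 pooled at 1449 CPM in the members and 1483 CPM in C1q-low wells. Gpnmb, a gene of the list left out of the median, pooled at 34.1 and 217 CPM. Apoe lay at 1.63 and the lipid-sensing receptor Trem2 at 0.79, each higher in the members on 7 of 7 plates. The lysosomal tetraspanin gene Cd63 (1.24) and the chemokine gene Cxcl16 (1.61) were likewise higher on 7 of 7 plates. The resident-type list had a median of 0.86, with the fractalkine receptor gene Cx3cr1 at 1.91 (higher on 6 of 7 plates), the efferocytosis receptor gene Mertk of the pan-macrophage list at 1.61 (6 of 7) and the scavenger receptor gene Stab1 at 1.43 (5 of 7). The chemokine and cell cycle lists had medians of 0.89 and 0.91, the lysosome list 0.31, the pan-macrophage list 0.15 and the MHC class II list 0.01. MHC class II transcripts therefore did not set the members apart from C1q-low wells, with pooled levels of H2-Aa of 9733 and 9431 CPM. The definition of C1q-low wells did not exclude dendritic cells. Those wells held 155 CPM of the 10 dendritic genes, against 25.3 CPM in the members. The part of dendritic cells in the MHC class II levels of C1q-low wells was not tested.

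Several genes often used to mark resident macrophages were nearly lacking. Cd163, a scavenger receptor for haptoglobin-bound haemoglobin, was found in 2 of 70 members, Vsig4, a complement receptor, in 2, and Lyve1, a hyaluronan receptor, in 3, while Cd209f and Cd209d were at 0. In epithelial-type wells Cd163 and Lyve1 were each found in 0.817%. The phosphatidylserine receptor gene Timd4 was found in 13 members and 1.09% of epithelial-type wells, and the mannose receptor gene Mrc1 in 44 members and 3.54%. Mrc1 levels ran from 66.5 CPM on FibCtrl 3 to 1171 CPM on FibΔZeb1 3. Ly6c2, which marks classical monocytes, was found in 3 members and pooled at 7.69 CPM. It was scarce elsewhere too, with 36.7 CPM in C1q-low, 44.7 CPM in neutrophil-type and 13.1 CPM in epithelial-type wells. Neither the Ly6c2-high monocyte nor the Cd163 and Lyve1 pattern was thus detectable in most members at this depth. For Ly6c2 this says little, given its low level in C1q-low wells.

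Members of the same plate differed from one another. For this comparison the 41 members of FibCtrl 3 and FibΔZeb1 1, the plates with at least 10 members, were each thinned to 1000 transcripts, and the variance over the mean within plates was taken for the 812 genes with a mean of at least 0.2. The median was 1.18, whereas Saa3 reached 31.8, Hspa1b 30.8, Retnla 21.2 and Spp1 16.0. Retnla encodes the secreted protein RELMα and Spp1 encodes osteopontin. Apoe (15.2), the small heat shock gene Hspb1 (15.2), the lubricin gene Prg4 (12.5), Cd74 (11.4), H2-Aa (10.3) and the lipoxygenase gene Alox15 (9.07) followed. Serpinb2, which encodes a plasminogen activator inhibitor, reached 7.25, Mmp12 6.91, the arginase gene Arg1 6.71, Fn1 5.71, Il1b 5.44 and H2-Ab1 5.19.

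**Figure D3:**
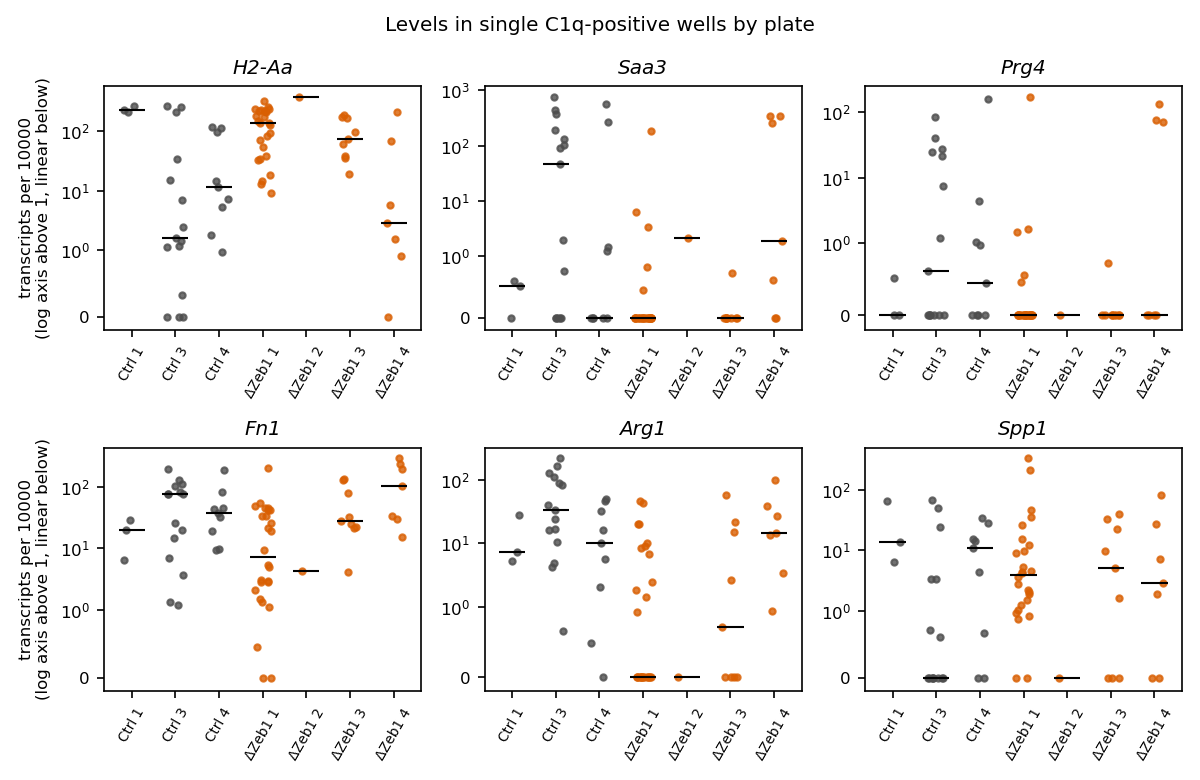
Transcripts per 10000 of 6 genes in each of the 70 members (log axis above 1, linear below), by plate; each point is 1 well, horizontal bars are plate medians, grey is FibCtrl and orange FibΔZeb1, and FibCtrl 2 had no member. H2-Aa was high in all 3 wells of FibCtrl 1 and in most wells of FibΔZeb1 1, and Saa3 and Prg4 were high in a few wells of FibCtrl 3, FibCtrl 4 and FibΔZeb1 4 and in 1 well of FibΔZeb1 1.

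The MHC class II genes varied together. H2-Aa lay between 0 and 375 per 10000, with a median of 64.3 over the 70 wells, and 37 wells reached 50 per 10000. Over the 70 wells, the Spearman correlation of H2-Aa was 0.96 with H2-Ab1, 0.95 with Cd74 and 0.64 with H2-Eb1, and over the 26 wells of FibΔZeb1 1 alone it was 0.93, 0.90 and 0.47. The correlation of H2-Aa with transcripts per well was 0.10, and that with the collagen transcripts per 10000 was 0.41, against 0.03 within FibΔZeb1 1. The part of fibroblast transcripts in these values was not tested. H2-Aa with Fn1 gave −0.43 and with Arg1 −0.46, but only −0.16 and −0.20 within FibΔZeb1 1. The wells share plates, libraries and sort, so these values describe the wells and carry no test. The genes lie on chromosome 17 of GRCm38, H2-Ab1 at 34257689 to 34269419, H2-Aa at 34282744 to 34287823 and H2-Eb1 at 34305867 to 34316674, with Cd74 elsewhere in the genome.

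Plates differed in how many members held much H2-Aa. The median over wells was 226 per 10000 on FibCtrl 1, 1.61 on FibCtrl 3 and 11.7 on FibCtrl 4, and 138, 74.3 and 2.91 on FibΔZeb1 1, 3 and 4. At least 50 per 10000 was reached by 3 of 3, 3 of 15 and 3 of 9 FibCtrl wells and by 19 of 26, 6 of 9 and 2 of 7 FibΔZeb1 wells, and by the 1 well of FibΔZeb1 2. The plates of each genotype spanned low and high medians.

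A different set of wells held Saa3 together with Prg4, Alox15, Serpinb2 and the P-selectin gene Selp. The limits used here, 50 per 10000 for Saa3 and H2-Aa, 10 for Prg4, Alox15, Serpinb2 and Mmp12 and 2 for Selp, were set after the rates had been seen. Saa3 reached its limit in 13 wells. All 10 wells that reached the limit for Prg4, all 8 for Alox15, all 8 for Serpinb2 and all 10 for Selp were among these 13. The H2-Aa limit was reached in 1 of the 13 wells, and in 36 of the other wells. None of the 13 wells with Mmp12 at its limit was among the Saa3 wells, whereas 9 of them reached the limit for H2-Aa.

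By plate, the 13 Saa3 wells were 7 of 15 members on FibCtrl 3, 2 of 9 on FibCtrl 4, 1 of 26 on FibΔZeb1 1 and 3 of 7 on FibΔZeb1 4, and there was none on FibCtrl 1, FibΔZeb1 2 or FibΔZeb1 3. The pooled level of Saa3 was 2055 CPM in C1q-low wells, 839 CPM in fibroblast-type and 64.4 CPM in epithelial-type wells. Prg4 pooled at 1420 CPM in the members, 312 CPM in C1q-low and 202 CPM in fibroblast-type wells, Alox15 at 694, 98.9 and 5.91 CPM, and Serpinb2 at 768, 269 and 78.6 CPM. On FibCtrl 3 the 6 C1q-low wells held more than the members of that plate, with 24063 against 11450 CPM of Saa3, 4809 against 1439 CPM of Prg4, 1558 against 370 CPM of Alox15 and 3943 against 1339 CPM of Serpinb2. The transcripts were thus not limited to C1q-positive wells. Fn1 reached 50 per 10000 in 19 members, which included all 10 Prg4 wells and all 8 Serpinb2 wells. Over 70 wells, the Spearman correlation of Saa3 was 0.67 with Serpinb2, 0.64 with Prg4, 0.67 with Selp and 0.59 with Alox15, and over the 26 wells of FibΔZeb1 1 it was 0.48, 0.51, 0.48 and 0.48. The latter values are for genes that were at 0 in most of those wells, and Saa3 alone took 430 of its 440 transcripts there from 1 well.

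Arg1, which depletes arginine, reached 10 per 10000 in 30 members, among them 10 of the 13 Saa3 wells and 10 of the 37 H2-Aa wells. It shared 15 wells with the 19 that reached the limit for Fn1. The Spearman correlation of Arg1 over the 70 wells was 0.57 with Fn1, 0.30 with Saa3 and −0.46 with H2-Aa, and within FibΔZeb1 1 it was 0.67, 0.04 and −0.20. Spp1 reached 50 per 10000 in 6 members, 0 of them Saa3 wells and 2 of them H2-Aa wells. Apoe correlated with C1qa at 0.48, with C1qb at 0.41 and with C1qc at 0.36 over the 70 wells, and with transcripts per well at −0.29. C1qb correlated with C1qc at 0.73 and with C1qa at 0.63. Because the wells had been chosen by the summed rate of these chains, correlations with them describe the chosen wells only. The gene spans on chromosome 4 are 136895917 to 136898803 for C1qa, 136889804 to 136893065 for C1qc and 136880129 to 136886187 for C1qb, all on the minus strand.

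The study asked how fibroblast Zeb1 shapes the immune cells of the tumour, and the share of members was therefore compared between genotypes. Among wells with at least 1000 transcripts, members made up 1.01% of 297, 0% of 82, 7.81% of 192 and 4.29% of 210 wells on FibCtrl 1 to 4, and 11.0% of 237, 0.415% of 241, 3.47% of 259 and 2.76% of 254 wells on FibΔZeb1 1 to 4. The exact (Clopper-Pearson) 95% intervals were 0.209 to 2.92%, 0 to 4.40%, 4.44 to 12.6% and 1.98 to 7.98% on FibCtrl 1 to 4, and 7.29 to 15.7%, 0.0105 to 2.29%, 1.6 to 6.49% and 1.12 to 5.60% on FibΔZeb1 1 to 4. For the 0 of 82 wells on FibCtrl 2, a limit of 3 counts corresponds to a share of 3.66%. Intervals and limits cover counting error only. The plates of both genotypes overlapped from near 0 to high values. The mean was 4.40% ± 4.57 (SD, n = 4) in FibΔZeb1 and 3.28% ± 3.53 (SD, n = 4) in FibCtrl, a difference of 1.13 percentage points (two-sided exact permutation test, p = 0.714, of which the smallest possible value is 0.0286).

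Among immune-type wells, defined by at least 1 transcript of Ptprc, the gene of CD45, and low Epcam and collagens, members made up 4.84% of 62, 0% of 19, 17.1% of 82 and 18.0% of 50 wells on FibCtrl 1 to 4. On FibΔZeb1 1 to 4 they made up 28.4% of 88, 1.05% of 95, 10.1% of 79 and 8.14% of 86 wells. The mean was 11.9% ± 11.7 (SD, n = 4) in FibΔZeb1 and 9.98% ± 8.96 (SD, n = 4) in FibCtrl, a difference of 1.95 percentage points (two-sided exact permutation test, p = 0.80). The differences were within the spread between plates, and both turned negative without FibΔZeb1 1, at −1.06 and −3.54 points. Cells were placed on the plates by gate in numbers set at the sort, so the shares describe the plates and not the tumour.

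Expression was compared between genotypes on the plates with at least 5 members, FibCtrl 3 and 4 against FibΔZeb1 1, 3 and 4. Of 3427 genes tested, 2 passed an adjusted p of 0.05 in edgeR's quasi-likelihood test (0.0584%), namely Retnla, which was higher in FibΔZeb1, and Cxcl13, which was lower (0.0292% in each direction). At an unadjusted p under 0.05 there were 135 genes, 68 higher and 67 lower, and the next smallest adjusted p was 0.981. Plates of the genotypes did not overlap for 265 genes that were higher in FibΔZeb1 (7.73%) and 405 that were lower (11.8%). The median log2 fold change over all genes was 0.00. Neither gene passed with the flow cell or host sex as a covariate (edgeR adjusted p of Retnla 0.0896 and 0.282, of Cxcl13 0.284 and 0.282), with a limit of 20 C1q transcripts per 10000 (0.443 for both), or among the 4 plates of a single flow cell, which leaves out FibΔZeb1 1.

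Retnla, on chromosome 16 at 48842551 to 48844461, is a gene of alternatively activated macrophages. Its members' counts were 1, 2 and 0 on FibCtrl 1, 3 and 4 and 259, 0, 81 and 16 on FibΔZeb1 1 to 4. FibCtrl plates were thus at or near 0, and 3 FibΔZeb1 plates were above them. The counts came from few wells: all 259 on FibΔZeb1 1 lay in 1 of 26 members, those on FibΔZeb1 3 in 2 of 9 and those on FibΔZeb1 4 in 3 of 7. Without the top well of FibΔZeb1 1 its level fell from 750 to 0 CPM. Retnla was found in 11.4% of members and in 4.09% of epithelial-type wells, which were deeper, with pooled levels of 394 and 1.74 CPM. C1q-low wells pooled at 38.5 CPM, with 447, 0 and 0 CPM in the 3, 6 and 6 such wells of FibCtrl 1, 3 and 4 and 0, 0, 7.18 and 67.1 CPM in the 18, 3, 17 and 14 of FibΔZeb1 1 to 4. The highest level there was thus on a FibCtrl plate. The fitted log2 fold change was 6.5 ± 0.90 (SE; edgeR adjusted p = 0.0421), which depends on the prior count because FibCtrl held 2 counts. The ratio of the pooled levels was 114, with an interval of 31.3 to 943 for counting error alone. The call was lost without FibCtrl 4, FibΔZeb1 1 or FibΔZeb1 3 (adjusted p of 0.0607, 0.339 and 0.170).

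Cxcl13, on chromosome 5 at 95956951 to 95961068, encodes a chemokine that attracts B cells. Its counts were 0, 21 and 35 on FibCtrl 1, 3 and 4 and 0 on FibΔZeb1 1 to 4. The 21 counts lay in 3 of 15 members and the 35 in 2 of 9, so 5 wells in all held the gene, or 7.14% of members against 3.0% of epithelial-type wells. It was at least 29.3-fold lower in FibΔZeb1, taking 3 counts over the 3 summed plates as the floor (fitted log2 fold change −7.83 ± 0.97 SE, edgeR adjusted p = 0.0421). Fibroblast-type wells held 51.1 CPM of Cxcl13 and the members pooled at 61.6 CPM, and the part of fibroblast transcripts in these counts was not tested. The call was lost without FibCtrl 3, FibCtrl 4, FibΔZeb1 1 or FibΔZeb1 3 (adjusted p of 0.0978, 0.534, 0.441 and 0.170).

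The genes with the smallest p among those whose plates did not overlap are given as values only, since none passed the threshold (edgeR adjusted p of 0.981 or more). Higher values in FibΔZeb1 were found for Col6a2, a collagen VI chain, with 30.2 and 47.4 CPM on FibCtrl 3 and 4 and 391, 231 and 76.8 CPM on FibΔZeb1 1, 3 and 4. Fibroblast-type wells held 2640 CPM of Col6a2, and FibCtrl 1, outside the fit, held 615 CPM of it in its members. The small GTPase gene Rhob stood at 218 and 261 CPM and at 502, 765 and 989 CPM, with 471 CPM on FibCtrl 1. Their log2 fold changes were 2.69 ± 0.62 and 1.68 ± 0.40 (SE).

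Heat shock genes were among these, with Hspa1b at 285 and 107 CPM on FibCtrl and 921, 1040 and 397 CPM on FibΔZeb1 (log2 fold change 2.03). Of the 318 Hspa1b counts on FibΔZeb1 1, 217 came from 1 well. The co-chaperone gene Dnajb1 had a log2 fold change of 1.70. The others were Ccdc109b (2.66), a subunit of the mitochondrial calcium uniporter, the guanine exchange factor Rasgef1b (2.06), the EGFR inhibitor Errfi1 (2.30), the lipoprotein lipase Lpl (1.78), the adhesion receptor Cd97 (1.54) and the class II pseudogene H2-Ea-ps (1.57). FibCtrl 1, outside the fit, lay among or above the FibΔZeb1 plates for 4 of these genes. It held 410 CPM of Lpl against 342, 171 and 179 CPM on FibΔZeb1 1, 3 and 4, and 123 CPM of Errfi1 against 107, 60.3 and 89.6 CPM. For Rasgef1b it held 389 CPM against 572, 171 and 359 CPM, and for Ccdc109b 102 CPM against 92.7, 60.3 and 141 CPM. It lay below them for Hspa1b (40.9 CPM), Dnajb1 (102 CPM), Cd97 (123 CPM) and H2-Ea-ps (81.8 CPM).

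Lower values in FibΔZeb1 were found for the cytokine gene Lif, with 394 and 196 CPM on FibCtrl 3 and 4 and 72.4, 0 and 25.6 CPM on FibΔZeb1 1, 3 and 4 (log2 fold change −2.72 ± 0.65 SE). The complement gene C3 stood at 454 and 499 CPM and at 200, 100 and 218 CPM (−1.41 ± 0.39 SE). The eosinophil attractant Ccl24 stood at 284 and 543 CPM and at 5.79, 10.0 and 166 CPM (−3.21 ± 0.93 SE). FibCtrl 1, outside the fit, held 0 CPM of Lif, 61.4 CPM of C3 and 40.9 CPM of Ccl24, each within or below the range of the FibΔZeb1 plates. The others were Samsn1 (−1.44), Gm20362 (−1.56), Olfr1033 (−2.40), the calcineurin regulator Rcan1 (−1.65), the scaffold gene Ppp1r9b (−1.37), the chromatin gene Dek (−1.17) and the scavenging chemokine receptor Cxcr7 (−2.92). In this order, the members of FibCtrl 1 held 3, 1, 1, 2, 8, 4 and 1 counts of them, where 3 counts equal 61.4 CPM. For all but Ppp1r9b, FibCtrl 1 thus lay with or near the FibΔZeb1 plates.

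**Figure D4:**
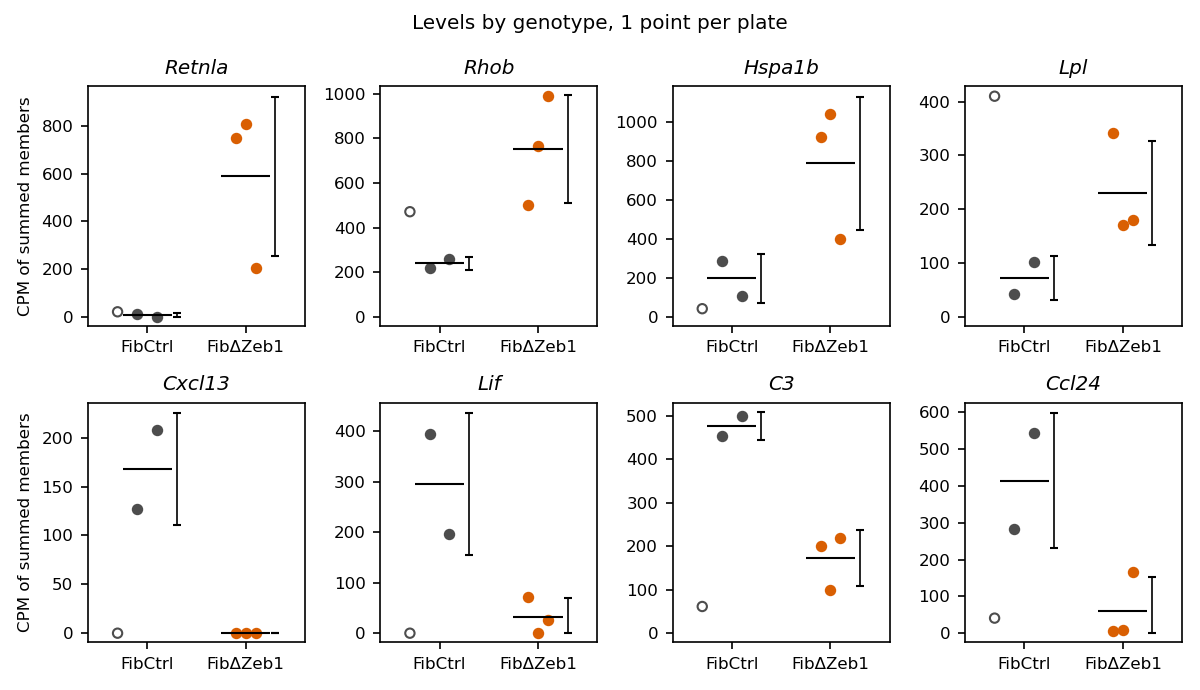
CPM of the summed members for 8 genes, 1 point per plate; filled points entered the fit, the open point is FibCtrl 1 (3 members), horizontal bars are means of the filled points and error bars 1 SD, cut at 0 (n = 2 FibCtrl and 3 FibΔZeb1). Filled points of the genotypes did not overlap for any of the 8 genes, but edgeR's adjusted p was under the threshold for Retnla and Cxcl13 only. The other genes were picked from those without overlap, so their lack of overlap was fixed by the choice. The open point lay with or near FibΔZeb1 for Rhob, Lpl, Cxcl13, Lif, C3 and Ccl24.

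Of the 16 lists of functions, 1 held a gene that passed the threshold, namely Retnla in the list of alternative activation. In the MHC class II list, 9 of 9 genes tested had a fold change above 0, against 1706 of all 3427 genes tested. The median was 0.86, but 0 passed the threshold. Without overlap between plates, 2 were higher in FibΔZeb1, as were 7.73% of all genes tested. H2-Aa had a log2 fold change of 1.09 ± 0.42 (SE), H2-Ab1 1.09, H2-Eb1 1.45 and Cd74 0.91. The list's median was 0.50 without FibΔZeb1 1, 0.51 without FibCtrl 4 and 1.34 without FibCtrl 3. With FibCtrl 1 added, in a comparison of plates with at least 3 members, the median of the list was −0.12 and H2-Aa, H2-Ab1 and H2-Eb1 lay at −0.23, −0.12 and −0.34. Summed over the list, the levels were 61357, 17828 and 11793 CPM on FibCtrl 1, 3 and 4 and 41514, 91680, 27963 and 17082 CPM on FibΔZeb1 1 to 4, so the genotypes overlapped.

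In the cell cycle list, 1 of 13 genes tested had a fold change above 0, against 1706 of all 3427 genes tested, and 0 passed the threshold. The median was −1.04 (−0.63 without FibΔZeb1 3 and −0.58 with at least 3 members per plate). Of the 13 genes, 7 were lower in FibΔZeb1 without overlap, against 11.8% of all genes tested. Summed over the list, the levels were 1351, 2648 and 3245 CPM on FibCtrl 1, 3 and 4 and 2429, 843, 593 and 1959 CPM on FibΔZeb1 1 to 4. FibCtrl 1 thus lay among the FibΔZeb1 plates. The tubulin regulator gene Stmn1 stood at 267 and 333 CPM on FibCtrl 3 and 4 and at 159, 0 and 167 CPM on FibΔZeb1 1, 3 and 4, and the replication clamp gene Pcna at 424 and 428 CPM and at 348, 121 and 308 CPM. The proliferation marker Mki67 overlapped between the genotypes, with 125 CPM on FibCtrl 4 and 206, 10.0 and 128 CPM on FibΔZeb1 1, 3 and 4. Single wells carried much of these levels, as on FibCtrl 3, where 1 of 15 members held 30 of the 32 Mki67 counts and 1 held all 24 of the topoisomerase gene Top2a.

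The medians of the other lists moved when single plates were left out. The median of 6 interferon-stimulated genes was 0.60, but 0.06 without FibΔZeb1 1, 0.99 without FibCtrl 3 and 1.56 without FibCtrl 4. That of the monocyte list was 0.49, with 0.23 and 0.31 without FibΔZeb1 3 or 4 and 0.90 without FibCtrl 4. The lipid-associated list had a median of 0.51, with 0.23 without FibΔZeb1 4, 0.77 without FibΔZeb1 1 and 0.18 with all plates that had members. The pan-macrophage list had one of 0.33 (0.19 without FibΔZeb1 4) and the immediate-early list one of 0.24 (0.04 without FibCtrl 4 and 0.72 without FibCtrl 3). For hypoxia and glycolysis the direction turned, with a median of −0.31 in the comparison, 0.60 without FibCtrl 3 and −0.66 without FibCtrl 4. Phagocytic receptors had a median of 0.13, with 0.05 without FibΔZeb1 1, 0.20 without FibCtrl 4 and −0.02 with all plates that had members.

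The remaining lists had medians near 0 whose sign also turned when 1 plate was left out. They were 0.09 for chemokines (−0.25 without FibΔZeb1 1), 0.05 for iron and heme (−0.21 without FibCtrl 4, 0.28 without FibCtrl 3), 0.04 for inflammatory cytokines (−0.08 without FibCtrl 4, 0.52 without FibCtrl 3) and 0.03 for resident-type genes (−0.34 without FibCtrl 3, 1.25 without FibCtrl 4). They were −0.03 for lysosomal genes (0.12 without FibCtrl 4), −0.04 for complement (−0.23 without FibCtrl 3, 0.23 without FibCtrl 4) and −0.23 for alternative activation (0.13 without FibCtrl 3). In the complement list, C3 was the only gene that did not overlap between the plates of the fit. The rule's own genes are given without a test: C1qa stood at 1828 and 2694 CPM on FibCtrl 3 and 4 and at 1790, 1239 and 705 CPM on FibΔZeb1 1, 3 and 4, and C1qb at 1914 and 3165 CPM and at 2730, 2958 and 2570 CPM.

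**Figure D5:**
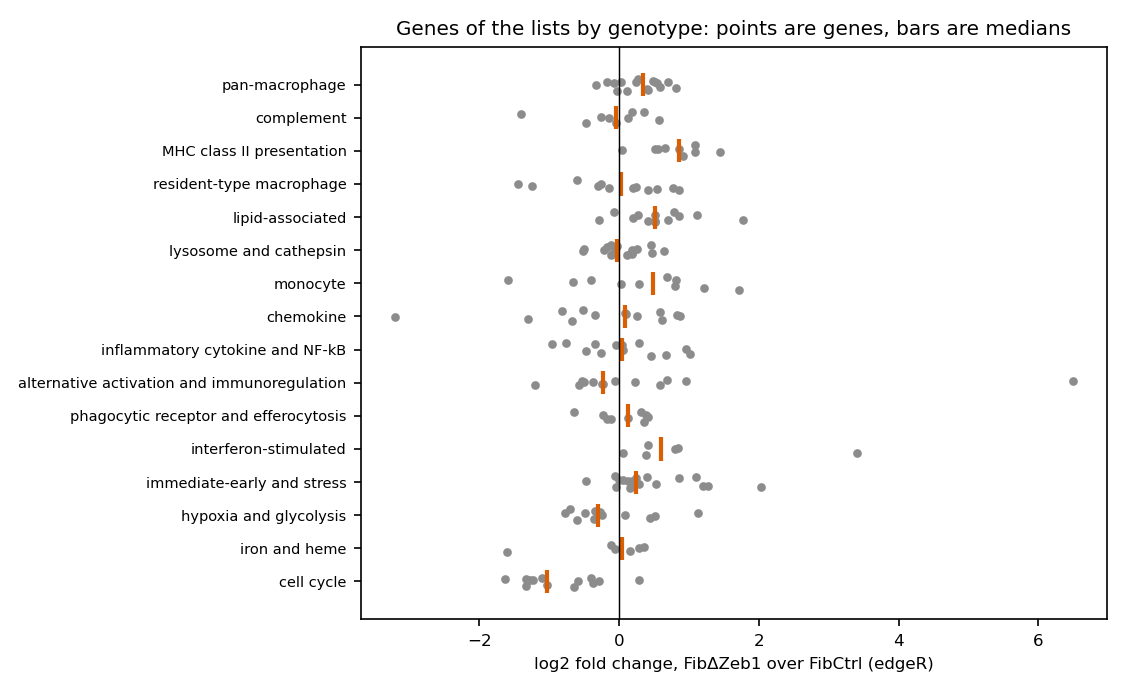
Log2 fold change (FibΔZeb1 over FibCtrl, edgeR, plates with at least 5 members) of the genes tested in each list; points are genes and orange bars are list medians. With these plates the MHC class II list had the highest median (0.86, which turned to −0.12 with at least 3 members per plate) and the cell cycle list the lowest (−1.04), and the rightmost point is Retnla (6.5).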

How the data were processed

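Single cells of 8 mouse tumours were index-sorted into 384-well plates and profiled by SORT-seq with CEL-Seq2 libraries on a NextSeq 500. According to the study's methods, the sequencing provider mapped reads with bwa to the GRCm38 transcriptome, and the authors deposited estimated counts, that is, unique molecular identifiers corrected for collisions, without scaling to depth. The submitters' processing notes also name Cell Ranger 2.1.1. Strand use in counting was not stated. Spike-in and mitochondrial rows were left out. Sort gates per well were not used here. Doublets were not called, as 1 cell was sorted per well, and the same 384 well barcodes served every plate.

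Member wells were found by the rule given above, and their counts were summed per plate and rounded. The members, lists and tests were chosen with earlier results of these data known. The planned fit on plates with at least 10 members left 2 plates, 1 per genotype, and gave no test; a minimum of 5 members, listed beforehand as an alternative, was therefore reported (2 FibCtrl and 3 FibΔZeb1 plates). The choice was made from the well counts, before any fit. Genes were tested with edgeR 4.0.16 (R 4.3.3; TMM, filterByExpr, quasi-likelihood, Benjamini-Hochberg over all genes tested), with SE taken as the fold change over the root of F. Shares were compared by exact permutation (scipy 1.17.1, Python 3.11.15, numpy 2.4.6, pandas 2.3.3). The fit was tested on simulated counts. Of 336 list symbols, 327 were in the tables, 7 of them under older symbols. Genes were named when they belonged to the lists, were among the 20 most abundant, the 20 highest or 10 lowest against C1q-low wells, or the 20 most variable, passed the genotype test, or were the 10 higher and 10 lower genes of smallest p without overlap. Selp was added after its values were seen. Motifs were kept from a larger set tried on the promoters. No plates agreed within sampling noise, so none was taken as a duplicate. Nothing says that mice were paired, and same-numbered plates did not deviate together (correlations of −0.07 and −0.10).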

Additional observations from a re-analysis of the deposited data

How the results depend on the processing

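The 2 called genes, Retnla and Cxcl13, were also the 2 called with DESeq2, with relative log expression factors and without ribosomal and sex-linked genes. Without a filter on low counts 23 genes passed (10 higher, 13 lower). With the replicate block, whose numbers are not shown to pair the mice and which leaves 1 residual degree of freedom, 4 passed (Cxcl13, Hal, Lif and Retnla), and with all plates or, chosen after seeing the data, at least 3 members per plate, 1 passed (Retnla). With the flow cell as covariate, host sex as covariate (chosen after seeing the data), at least 20 C1q transcripts per 10000 or wells thinned to 1000 transcripts, 0 passed in edgeR (172, 102, 136 and 14 at an unadjusted p under 0.05; the thinned fit tested 167 genes). Leaving out 1 plate gave 0 to 3 calls, with 0 without FibΔZeb1 1 or 3. The fold changes of H2-Aa, H2-Ab1 and H2-Eb1 turned to −0.23, −0.12 and −0.34 with at least 3 members per plate, and that of H2-Eb1 to −0.32 with all plates. Of 456 recomputed fold changes of 26 genes, these 4 changed sign. The 456 include settings, named below, that removed no member and could not change a sign. Most of the 26 genes had also been picked for plates that did not overlap, so the count does not measure stability. Leaving out 1 plate moved the share difference between −1.06 and 2.64 points among all wells and between −3.54 and 5.58 among immune-type wells (−1.37 without FibCtrl 2), and differences within replicate pairs gave an exact permutation p of 0.875 for both. The limits on mitochondrial share, on the depth of a well and on neutrophil transcripts removed no member from the fitted plates and test nothing. The causes of these changes were not tested. With 2 FibCtrl plates and 7 to 26 wells behind a plate's value, genes carried by 1 or 2 wells limit what the genotype comparison can show.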
